A study of Mus musculus with 12 samples.

Results

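The 9 genes described here cover one oxysterol circuit: Ch25h, which makes 25-hydroxycholesterol, the breakdown enzyme Cyp7b1, the receptor Gpr183, the liver X receptors Nr1h2 and Nr1h3, and the sterol export and uptake genes Abca1, Abcg1, Mylip and Apoe. They were chosen by name with earlier results of these same libraries known, and Ch25h was selected on its levels in the 4 groups and its interaction; all 9 were found among the 46078 genes of the count table and among the 18252 genes tested. Ch25h is 1 of the 11 genes that passed the test for an interaction between the drugs, so the values of the 9 genes are given as a description, with no p-value. RNA was sequenced from orthotopic tumours in BALB/c mice. They grew from 300000 cells of the luciferase-bearing mammary carcinoma line 4T1, placed in mammary fat pad 4. The treatments ran for 2 weeks from day 14, and tumours were taken on day 28. The groups were MBQ-167 (100 mg/kg, 5 times a week), paclitaxel (5 mg/kg, 1 time a week), the combination of both drugs, and vehicle, with 3 libraries each. The labels give the genotype as WT in all groups. MBQ-167 blocks the GTPases Rac and Cdc42, and paclitaxel stabilises microtubules. The tumours come from 1 cell line, and the mouse's age, whether each library is a separate mouse, and which of 2 injection occasions it came from are not given in the labels, so a p-value reflects only how these libraries vary, and the occasion cannot be told apart from the group. The comparisons with vehicle share the same 3 vehicle libraries.

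Oxysterols are cholesterol molecules with an added hydroxyl group that report a cell's sterol load. Ch25h is induced in macrophages by interferons and by microbial signals, and its product restrains the transcription factor SREBP-2, which drives cholesterol synthesis and uptake. Cyp7b1 adds a further hydroxyl group, giving the ligand that draws GPR183-bearing immune cells through tissue, and Hsd3b7 ends that signal. Oxysterols also bind the liver X receptors (LXRs), which pair with retinoid X receptors to raise the export pumps ABCA1 and ABCG1, the lipid carrier apolipoprotein E, and Mylip (also called IDOL), a ubiquitin ligase that limits the uptake of lipoproteins.

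The promoters of Ch25h, whose level differed most between groups, and of Abca1, a textbook LXR target, are shown because they hold matches to different known elements. RefSeq windows (GRCm38.p6, 250 bases before to 50 after a start site) were found for 7 of the 9 genes, 10 windows in all; those of Cyp7b1 and Abcg1 were not matched. Capitals mark every motif match. The Ch25h window is chr19:34475099-34475398 and the Abca1 window chr4:53159846-53160145, both on the minus strand and printed 5′ to 3′.
Ch25h: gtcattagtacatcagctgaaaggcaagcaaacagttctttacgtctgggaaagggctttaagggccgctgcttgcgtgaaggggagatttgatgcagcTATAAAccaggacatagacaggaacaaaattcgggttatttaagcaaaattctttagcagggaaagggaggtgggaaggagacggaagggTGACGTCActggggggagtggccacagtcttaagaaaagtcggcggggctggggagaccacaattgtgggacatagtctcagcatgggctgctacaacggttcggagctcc
Abca1: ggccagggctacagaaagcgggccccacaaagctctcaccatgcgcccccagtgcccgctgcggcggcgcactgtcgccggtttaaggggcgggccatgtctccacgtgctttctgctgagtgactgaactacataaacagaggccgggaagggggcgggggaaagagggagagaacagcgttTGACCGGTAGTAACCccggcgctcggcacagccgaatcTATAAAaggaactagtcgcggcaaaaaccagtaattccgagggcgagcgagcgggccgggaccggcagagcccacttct
In the Ch25h window the capitals are a TATA word (TATAAA) starting at position -151 and a cyclic AMP response element (CRE, TGACGTCA) at position -61 from the start site. The CRE word is in 1.79% of 32851 mouse windows of this length. In the Abca1 window they are a pair of LXR half-sites spaced by 4 bases (DR4) at position -67, on the other strand, and TATAAA at position -29. The DR4 pattern, GGTNA, any 5 bases and GGTNA again, is in 0.718% of all windows and TATAAA in 13.6%. The other motifs searched, on both strands, were the half-sites AGGTCA (16.3% of windows) and GGGTCA (13.7%), the interferon elements GAAA, any 2 bases, GAAA (3.44%) and TTCNNNGAA (8.3%), and the AP-1 site TGANTCA (7.81%). The half-sites can overlap the DR4 pattern. Of these, the 1 match in any of the 10 windows was GGGTCA in a window of Apoe. A match is a description of letters and not a measured binding site.

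Library totals ran from 11540557 to 17001562 counts. Of the 8 epithelial markers listed for 4T1, 8 were detected, with summed levels of 1042 to 1565 CPM in MBQ-167, 1192 to 1300 in paclitaxel, 981.3 to 1735 in combination and 992.1 to 3040 in vehicle libraries. CPM is the count per 1000000 counts of a library, with library sizes corrected by edgeR's TMM method. The vehicle group had the widest range in epithelial, neutrophil and macrophage markers. Vehicle 3 had a summed neutrophil marker level of 1603 CPM, against 379.5 and 498.1 CPM in the other vehicle libraries, and the lowest macrophage marker level of all 12 libraries, 588 CPM. Neutrophil markers summed to 222.2 to 346.4 CPM with MBQ-167, 212.8 to 292.7 with paclitaxel, 215.9 to 325.1 with the combination and 379.5 to 1603 with vehicle. In bulk tumour RNA, fewer cells of a type and less RNA per cell cannot be told apart.

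Per length of merged exons (RPKM, averaged over the 12 libraries), Apoe stood first at 319, followed by Abca1 at 16.9, Nr1h2 at 12.6, Mylip at 6.08, Ch25h at 3.95, Abcg1 at 3.32, Gpr183 at 3.06, Cyp7b1 at 1.65 and Nr1h3 at 1.01. Ch25h, Abcg1 and Gpr183 are neighbours in this order whose library values overlap. The coefficient of variation of the level over the 12 libraries was 55% for Ch25h, 49.2% for Gpr183, 47.8% for Cyp7b1 and 41.5% for Apoe, against 9.9% for Nr1h2, 12.9% for Mylip, 17.7% for Abca1, 19.5% for Abcg1 and 23.1% for Nr1h3. The variation thus lay in the oxysterol enzymes, the receptor GPR183 and Apoe, and less in the LXRs and the pumps.

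**Figure D1:**
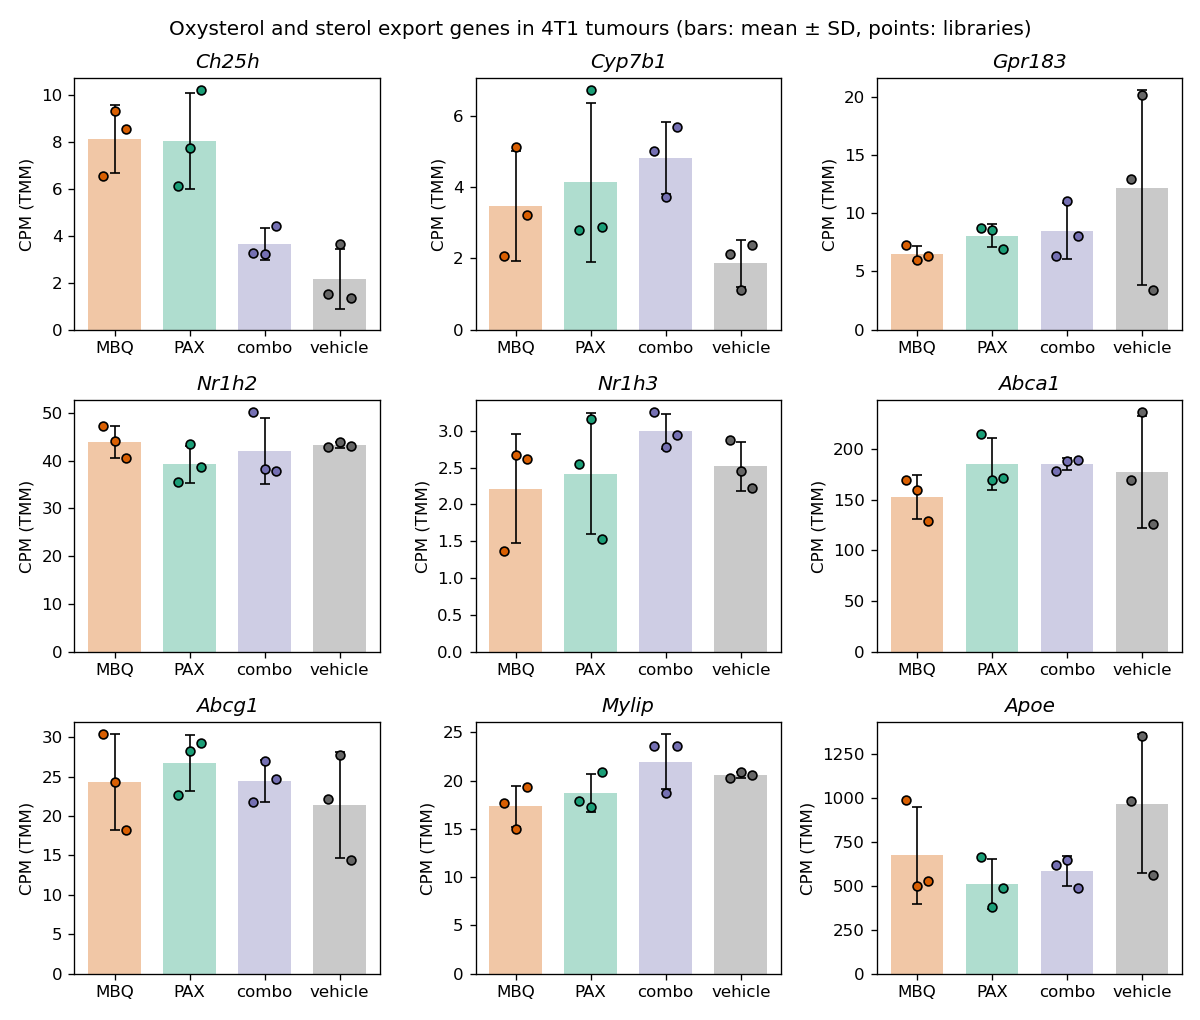
Level of each of the 9 genes in CPM (y axis, from 0) by group, with MBQ-167 (MBQ), paclitaxel (PAX), combination (combo) and vehicle from left to right; bars are means, error bars SD and points the 3 libraries. Ch25h averaged 8.12 and 8.01 CPM under the single drugs, 3.63 under the combination and 2.17 in vehicle.

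Ch25h (ENSMUSG00000050370, chromosome 19, 34473778 to 34475164, GRCm38, minus strand) encodes cholesterol 25-hydroxylase. In these libraries its mean level was higher with either single drug than with vehicle, and lower with both drugs than with either one. It had 6.52, 9.32 and 8.52 CPM in the MBQ-167 libraries, 6.12, 7.74 and 10.2 CPM in the paclitaxel libraries, 3.25, 3.22 and 4.43 CPM in the combination libraries, and 1.51, 3.64 and 1.35 CPM in the vehicle libraries. All 6 single-drug libraries lay above all 6 combination and vehicle libraries, and combination overlapped vehicle through vehicle 2 alone. The raw counts behind these levels were 91, 129 and 140 with MBQ-167, 127, 98 and 166 with paclitaxel, 35, 52 and 84 with the combination, and 20, 46 and 20 with vehicle, so counting error is not small in the vehicle group.

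The fitted log2 fold change of Ch25h against vehicle was 1.91 ± 0.35 (SE, n = 3 per group) under MBQ-167, 1.89 ± 0.35 under paclitaxel and 0.76 ± 0.35 under the combination. Against the single drugs, the combination stood at -1.15 ± 0.33 relative to MBQ-167 and -1.13 ± 0.33 relative to paclitaxel. In mean CPM this was 3.75 times vehicle under MBQ-167, 3.7 times under paclitaxel and 1.68 times under the combination. If the single-drug folds multiplied, the combination would have averaged 30 CPM, and it averaged 3.63 CPM. The interaction (the log2 change of the combination less the sum of both single-drug changes, 0 where effects add) was -3.04 ± 0.48. The other 8 genes had interactions between -0.65 ± 0.59 (Cyp7b1) and 0.97 ± 0.60 (Gpr183).

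**Figure D2:**
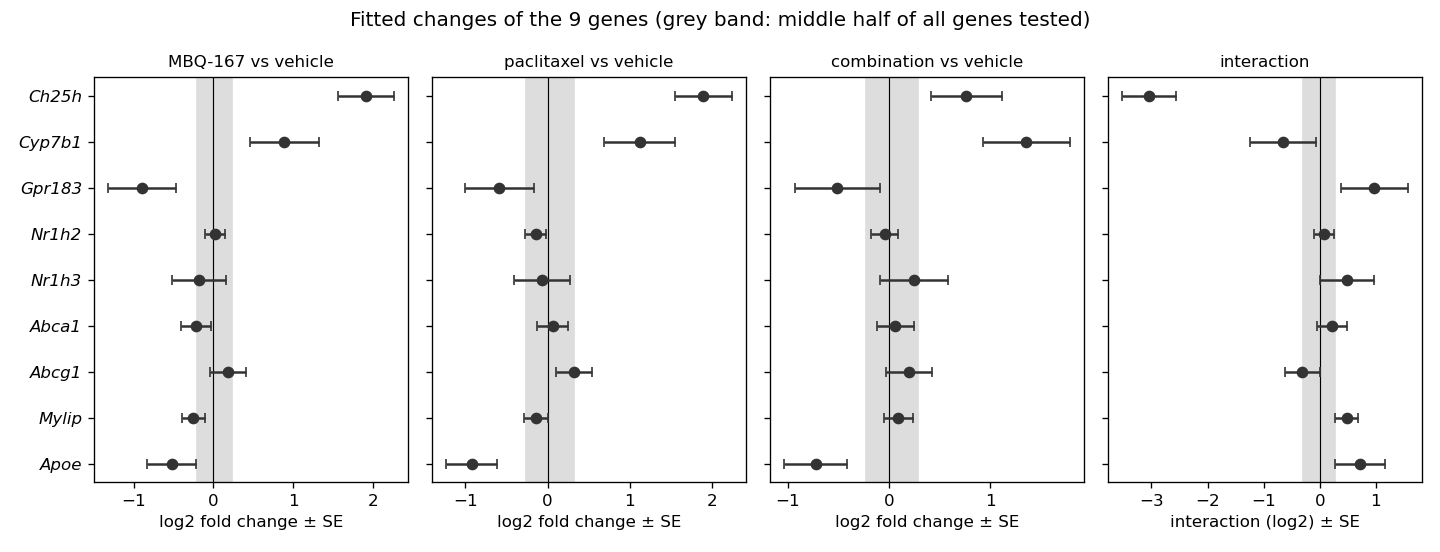
Fitted log2 fold change against vehicle (3 left panels) and interaction (right panel) of the 9 genes, with SE bars; the grey band is the interquartile range of all 18252 genes tested. Ch25h stands at 1.91 with MBQ-167, 1.89 with paclitaxel, 0.76 with the combination and -3.04 in the interaction.

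Ch25h was above vehicle under both single drugs in each of the 12 alternative fits. Its size moved most on leaving out vehicle 2 and on adding the neutrophil marker level, in opposite directions. Without vehicle 2 the values were 2.50 with MBQ-167, 2.48 with paclitaxel, 1.35 with the combination and -3.63 in the interaction. Ch25h was among the genes that passed for paclitaxel in 6 of 6 fits that left out 1 library. For the interaction it passed in 2 of 12, those without vehicle 2 (-3.63) and without combination 3 (-3.22). In the other 10 the interaction ran from -3.21 to -2.79 and missed the threshold. For MBQ-167 it missed the threshold with all 12 libraries and passed in 1 of 6 such fits, without vehicle 2. It passed in 0 of 6 for the combination against vehicle, MBQ-167 or paclitaxel. Over every alternative fit Ch25h passed in 7 of 18 for the interaction, 4 of 12 for MBQ-167 and 11 of 12 for paclitaxel. The interaction passes included DESeq2, RLE scaling, no filter on low counts, the replicate block and the GC correction. Since Ch25h was chosen on these values, the calls describe the fits and are no support for its result. When the neutrophil marker level entered the fit, Ch25h had 1.41 ± 0.40 with MBQ-167, 0.96 ± 0.54 with paclitaxel, -0.07 ± 0.51 with the combination and -2.44 ± 0.52 in the interaction, and passed in none of these comparisons. Neutrophil markers were highest in vehicle and lower in every drug group (values above), so this level and the treatment cannot be told apart, and its part in the Ch25h result was not tested.

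**Figure D3:**
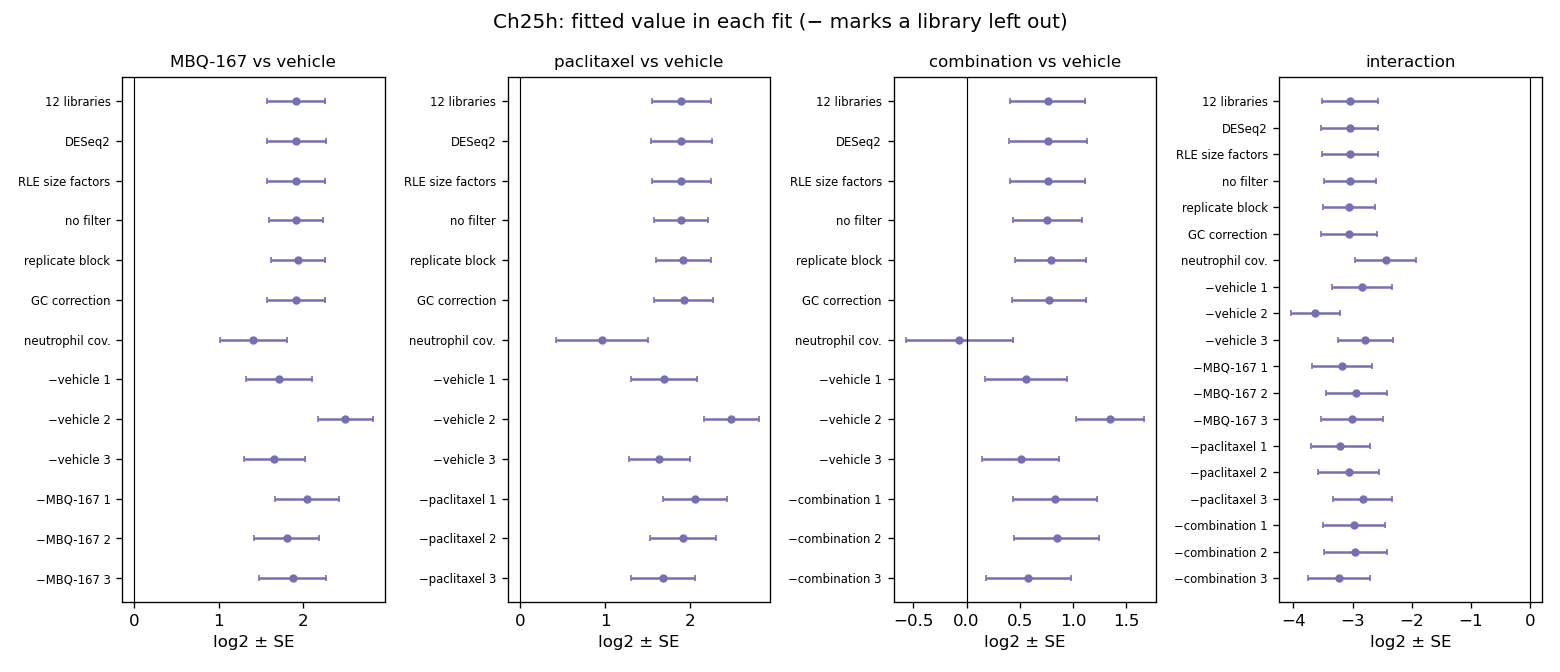
Fitted log2 value of Ch25h with SE bars (x axis) in the fit of 12 libraries and in each alternative fit (y axis), for MBQ-167, paclitaxel and combination against vehicle and for the interaction. The point without vehicle 2 lies farthest from 0 in each panel, at 2.50, 2.48, 1.35 and -3.63, and the combination crosses 0 with the neutrophil marker covariate (-0.07).

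An opposite-strand transcript overlaps Ch25h: Gm26902, annotated as a lncRNA of a bidirectional promoter. It averaged 2.44 ± 0.46 CPM (SD, n = 3) with MBQ-167, 2.06 ± 0.76 with paclitaxel, 1.15 ± 0.29 with the combination and 1.07 ± 0.18 with vehicle. Its log2 fold changes against vehicle were 1.17 ± 0.38 (SE), 0.94 ± 0.38 and 0.11 ± 0.39 in the same order of drug groups, and its interaction was -2.0 ± 0.53. It did not pass in any of these (edgeR adjusted p = 0.208, 0.157, 0.914 and 0.226). The strandedness of the libraries is not given in the sources used here, so reads of the pair may mix.

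The 6 genes whose log2 CPM followed Ch25h most closely over the 12 libraries, among 11523 genes averaging 5 CPM or more, were Tmem68 (Pearson r = 0.91), Batf2 (0.90), a transcription factor of the BATF family, Tmem229b (0.90), Sfmbt2 (0.90), a Polycomb-related protein, Nsun3 (0.88), a methyltransferase of mitochondrial tRNA, and Ttc13 (0.88). These values describe likeness across libraries that share their groups and carry no test. Tmem229b is, with Ch25h and Zbp1, 1 of the 3 genes that passed with a negative interaction. Ch25h itself had r = 0.51 with Abcg1, 0.34 with Cyp7b1 and 0.06 with Abca1 over the same 12 libraries.

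Cyp7b1 (ENSMUSG00000039519, chromosome 3, 18071950 to 18243338, minus strand) encodes oxysterol 7α-hydroxylase, which acts on the product of Ch25h. It had 2.08, 5.13 and 3.23 CPM with MBQ-167, 2.8, 6.72 and 2.88 CPM with paclitaxel, 5.02, 3.72 and 5.69 CPM with the combination, and 2.12, 1.11 and 2.36 CPM with vehicle. Every paclitaxel and combination library lay above every vehicle library, while MBQ-167 overlapped vehicle through its library 1. The log2 fold changes against vehicle were 0.89 ± 0.43 (SE, n = 3 per group) under MBQ-167, 1.12 ± 0.43 under paclitaxel and 1.36 ± 0.43 under the combination. Without MBQ-167 2 the first was 0.51, and without paclitaxel 2 the second was 0.60, these being the libraries with the highest level in their group. Cyp7b1 missed the threshold for the combination in the main fit. It passed there in 2 of 12 alternative fits, DESeq2 (1.36) and no filter on low counts (1.35). The genes most like Cyp7b1 over the 12 libraries were Bard1, Tbce and ENSMUSG00000063254 (Pearson r = 0.90 each). Where Ch25h was lower under the combination than under either drug, Cyp7b1 had fold changes of 0.47 ± 0.41 relative to MBQ-167 and 0.24 ± 0.41 relative to paclitaxel.

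The balance of the enzyme pair was lowest under the combination among the drug groups. The within-library ratio of Ch25h to Cyp7b1, both as RPKM, was 2.84 to 4.9 with MBQ-167, 1.8 to 5.52 with paclitaxel, 1.01 to 1.35 with the combination and 0.892 to 5.13 with vehicle. The 3 combination ratios lay below all 6 single-drug ratios, and the vehicle ratios, spread by vehicle 2, ran from below the combination ratios to near the highest. Against Hsd3b7, which inactivates the GPR183 ligand and was steadier, the Ch25h ratio was 0.423 to 0.744 with MBQ-167, 0.356 to 0.656 with paclitaxel, 0.223 to 0.267 with the combination and 0.0859 to 0.215 with vehicle.

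Gpr183 (ENSMUSG00000051212, chromosome 14, 121952551 to 121965195, minus strand), the oxysterol receptor of B cells, T cells, dendritic cells and macrophages, varied most among the vehicle tumours. It had 7.31, 5.99 and 6.33 CPM with MBQ-167, 8.72, 8.53 and 6.93 CPM with paclitaxel, 6.32, 11.1 and 8.01 CPM with the combination, and 13, 20.2 and 3.44 CPM with vehicle. The vehicle libraries held both the lowest and the 2 highest values of the 12, so every drug group overlapped vehicle. The log2 fold changes were -0.89 ± 0.43 with MBQ-167, -0.59 ± 0.42 with paclitaxel and -0.51 ± 0.42 with the combination. They were -1.34, -1.04 and -0.96 without vehicle 3, and -0.32, -0.02 and 0.05 without vehicle 2, which turns the sign of the combination. With neutrophil markers in the fit they were -1.75, -2.14 and -2.01, and Gpr183, not Ch25h, was then the 1 of the 9 genes that passed for paclitaxel. It also passed for paclitaxel without vehicle 3.

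Among the vehicle libraries Gpr183 ran in the order of the macrophage marker level. That level, the mean deviation of 12 markers in log2 CPM, was 0.40, 0.85 and -0.93 in vehicle 1 to 3, and between -0.41 and 0.40 in the 9 drug libraries. All 12 macrophage markers were detected, and their summed levels were 882.2 to 1506 CPM with MBQ-167, 787.7 to 1266 with paclitaxel, 813.9 to 1480 with the combination and 588 to 2051 with vehicle. The part of macrophage content in the Gpr183 values was not tested. Gpr183 is also found on B cells, T cells and dendritic cells. Their summed markers were 6.79 to 52.8, 6.26 to 100.9, 5.11 to 60.1 and 3.71 to 32.1 CPM for B cells in MBQ-167, paclitaxel, combination and vehicle libraries. In the same order they were 17.8 to 24.6, 18 to 34.2, 17.3 to 22 and 5.61 to 18.1 CPM for T and NK cells (9 of 10 markers tested), and 41.6 to 57.9, 39.1 to 47.2, 48.2 to 50.5 and 31.2 to 51.7 CPM for dendritic cells. Their part was not tested either. The genes most like Gpr183 across the 12 libraries were Cfp (Pearson r = 0.93), which encodes properdin, Fcrls (0.93) and Folr2 (0.92), the last a folate receptor found on tissue macrophages. Gpr183 lies within Ubac2 on the opposite strand, which averaged 20.8 CPM with MBQ-167, 18.6 with paclitaxel, 18 with the combination and 18.4 with vehicle.

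**Figure D4:**
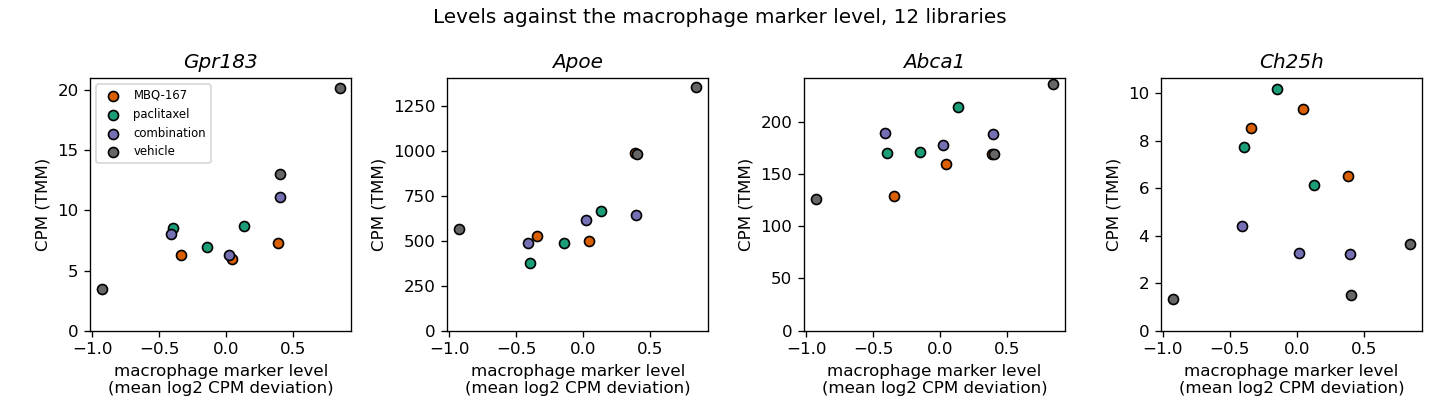
Levels of Gpr183, Apoe, Abca1 and Ch25h in CPM (y axis, from 0) against the macrophage marker level (x axis, mean deviation in log2 CPM of 12 markers) in the 12 libraries, coloured by group. Vehicle 2 is highest on the x axis (0.85) and highest in Gpr183 (20.2 CPM), Apoe (1353 CPM) and Abca1 (236.3 CPM), while its Ch25h level is 3.64 CPM.

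The receptors that read oxysterols in the nucleus had fold changes near 0. Nr1h2 (ENSMUSG00000060601, chromosome 7, 44549616 to 44553951, minus strand), which encodes the widely expressed LXRβ, averaged 43.95 ± 3.37 CPM (SD, n = 3) with MBQ-167, 39.2 ± 3.93 with paclitaxel, 42.1 ± 6.97 with the combination and 43.3 ± 0.60 with vehicle. Its log2 fold changes against vehicle were 0.02 ± 0.13, -0.14 ± 0.13 and -0.05 ± 0.13 for the drug groups in that order. Nr1h3 (ENSMUSG00000002108, chromosome 2, 91184061 to 91202834, minus strand), which encodes LXRα of macrophages, liver and fat, averaged 2.22 ± 0.74 CPM with MBQ-167, 2.42 ± 0.82 with paclitaxel, 3 ± 0.24 with the combination and 2.52 ± 0.33 with vehicle (log2 fold changes of -0.18 ± 0.34, -0.06 ± 0.34 and 0.25 ± 0.34). Compared per length, Nr1h2 exceeded Nr1h3 by 9.63 to 26 times in the 12 libraries, with a median of 11.6, and the ratios were 9.63 to 11.5 with the combination, all below the 11.6 to 26 with MBQ-167, while the other pairs of groups overlapped. Nr1h3 rests on 19 to 56 counts per library, so its SE is wider than that of Nr1h2. Most like Nr1h2 over the 12 libraries were Mien1 (r = 0.93), Pdss2 (0.87) and Lrrc20 (0.86), and most like Nr1h3 were Ranbp6 (0.83), Adcy9 (0.83) and Cipc (0.82).

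In the groups where Ch25h was higher, the export pumps had smaller fold changes than Ch25h, with signs that changed between fits. Abca1 (ENSMUSG00000015243, chromosome 4, 53030787 to 53159895, minus strand), the pump that loads lipid-poor apolipoproteins, had 169.7, 159.7 and 128.7 CPM with MBQ-167, 214.7, 169.9 and 171.1 CPM with paclitaxel, 178.1, 188.1 and 189.4 CPM with the combination, and 169.7, 236.3 and 126.2 CPM with vehicle. The vehicle libraries enclosed all 9 drug libraries. Its log2 fold changes were -0.22 ± 0.19, 0.06 ± 0.19 and 0.06 ± 0.19 against vehicle for the drug groups in that order, and -0.41, -0.13 and -0.13 without vehicle 3. Without vehicle 2 they were 0.04, 0.32 and 0.32, and with neutrophil markers in the fit -0.49, -0.39 and -0.36, so the sign rests on these choices. Combination libraries all lay above MBQ-167 libraries, with a fold change of 0.28 ± 0.19. Abcg1 (ENSMUSG00000024030, chromosome 17, 31057675 to 31117988, plus strand), the pump that passes sterol to formed lipoproteins, averaged 24.3 ± 6.06 CPM (SD, n = 3) with MBQ-167, 26.7 ± 3.57 with paclitaxel, 24.5 ± 2.64 with the combination and 21.4 ± 6.71 with vehicle. Its fold changes were 0.18 ± 0.22, 0.32 ± 0.22 and 0.20 ± 0.22. With the neutrophil marker covariate they were -0.35, -0.59 and -0.63, so their sign rests on that choice. Without vehicle 3 they were -0.04, 0.10 and -0.03, and without vehicle 2 they were 0.41, 0.55 and 0.42. Most like Abca1 were Phospho2 (r = 0.92), Gprin3 (0.90) and Man2c1 (0.88), and most like Abcg1 were Synpo2 (0.88), Med8 (0.88) and Tgs1 (0.87).

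Mylip (ENSMUSG00000038175, chromosome 13, 45389742 to 45412022, plus strand) averaged 17.3 ± 2.16 CPM (SD, n = 3) with MBQ-167, 18.7 ± 1.93 with paclitaxel, 22 ± 2.83 with the combination and 20.6 ± 0.31 with vehicle. The MBQ-167 libraries, at 17.7, 15 and 19.3 CPM, all lay below the vehicle libraries, at 20.3, 21 and 20.6 CPM. The log2 fold changes were -0.25 ± 0.15 with MBQ-167, -0.14 ± 0.14 with paclitaxel and 0.09 ± 0.14 with the combination. The genes most like Mylip were Gm11739 (r = 0.81), Bcas3 (0.78) and Hint3 (0.78).

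Apoe (ENSMUSG00000002985, chromosome 7, 19696109 to 19699188, minus strand), a secreted lipid carrier made in quantity by macrophages, was the most abundant of the 9 genes. It had 989.7, 499 and 526.3 CPM with MBQ-167, 662.8, 376.5 and 487 CPM with paclitaxel, 617.5, 645.2 and 485.7 CPM with the combination, and 979.3, 1353 and 562.3 CPM with vehicle. Of the 9 drug libraries 5 lay below all vehicle libraries and 0 above all of them. The log2 fold changes were -0.52 ± 0.31 with MBQ-167, -0.92 ± 0.31 with paclitaxel and -0.73 ± 0.31 with the combination. Without vehicle 3, the library low in macrophage markers, they were -0.80, -1.20 and -1.0, and without vehicle 2 they were -0.20, -0.60 and -0.41. With neutrophil markers in the fit they were -0.92, -1.57 and -1.34. Without MBQ-167 1, the highest library of its group, the MBQ-167 value was -0.91. Vehicle 2, the library highest in Apoe, was also highest in macrophage markers, and the part of macrophage content was not tested. The genes most like Apoe over the 12 libraries were Serinc1 (Pearson r = 0.98), Man2b1 (0.97), a lysosomal mannosidase, and Ctsz (0.94), a lysosomal protease. Apoe and Cyp7b1 ran opposite ways across libraries (r = -0.85 over 12 libraries, a description that includes the group differences).

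Counted over the 9 genes, edgeR's quasi-likelihood test at an adjusted p under 0.05 called 0 with MBQ-167 (0.0931% of all genes were called), 1 with paclitaxel (Ch25h; 5.66% in either direction, 3.17% higher), 0 with the combination (1.84%) and 1 in the interaction (Ch25h; 0.0603% in either direction, 0.0164% lower). Combination against MBQ-167 and against paclitaxel called 0 of the 9 and 0% of all genes in each case. At an unadjusted p under 0.05 the counts among the 9 were 1, 3, 3 and 2 for MBQ-167, paclitaxel, combination and interaction, and 2 and 1 for the combination against MBQ-167 and paclitaxel. Over all genes the shares were 12.9%, 22.6%, 18.4% and 9.83%, and 5.15% and 2.36%, in the same order. DESeq2 called 1 of the 9 in each of the first 4 comparisons and 0 in the last 2. The gene was Ch25h for MBQ-167, paclitaxel and the interaction, and Cyp7b1 for the combination. Over all 18252 genes it called 284, 1737, 918 and 133, and 1 and 5, in the same order. Groups did not overlap for 2 of the 9 genes with MBQ-167 (17.3% of all genes), 2 with paclitaxel (25.4%), 1 with the combination (20.9%), 3 for combination against MBQ-167 (12.5%) and 1 for combination against paclitaxel (7.28%). Since Ch25h was listed with its result known, nothing is read from these counts. The median log2 fold change of the 9 genes was -0.18, -0.06 and 0.09 for MBQ-167, paclitaxel and combination against vehicle, beside 0.00073, -0.0018 and 0.00093 over all genes.

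To describe the surrounding sterol pathway, 74 further genes were listed by role, of which 65 were tested. The list was chosen with earlier results of these data known, so the adjusted p-values of its genes describe the fit and are no independent support. Each gene was tested on its own, and nothing is concluded about the pathway as a whole. With paclitaxel 2 of the 65 fell and 0 rose, against 2.49% of all genes lower. In the combination tumours 0 of 65 passed, and likewise with MBQ-167, in both comparisons of the combination with a single drug, and in the interaction. At an unadjusted edgeR p under 0.05 there were 3 genes for MBQ-167, 12 for paclitaxel, 12 for the combination, 6 and 0 for the combination against MBQ-167 and paclitaxel, and 1 for the interaction. These are 4.62%, 18.5% and 18.5% of the 65 against 12.9%, 22.6% and 18.4% of all genes for the comparisons with vehicle, 9.23% against 5.15% and 0% against 2.36% for the combination over MBQ-167 and over paclitaxel, and 1.54% against 9.83% for the interaction. DESeq2 called 5 of the 65 for paclitaxel, 2 for the combination and 0 in each of the other 4. Over all 18252 genes it called 1737 for paclitaxel and 918 for the combination. The median over the 65 genes was -0.03 with MBQ-167, -0.07 with paclitaxel and -0.07 with the combination.

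**Figure D5:**
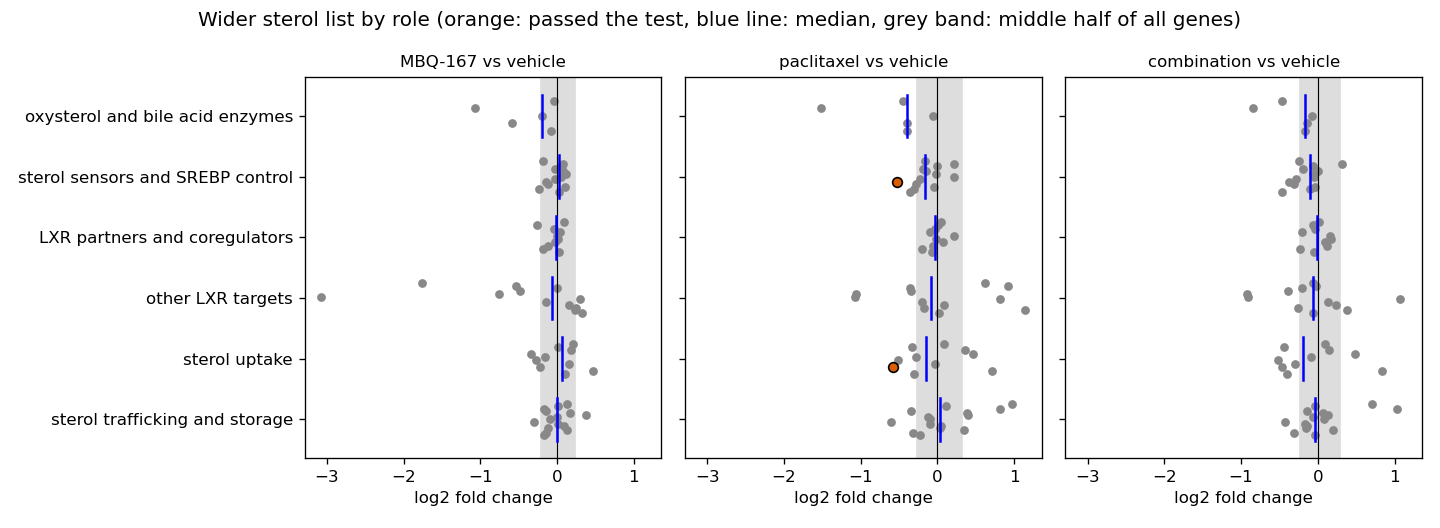
Log2 fold change against vehicle (x axis) of the 65 tested genes of the wider sterol list by role (y axis), 1 point per gene, with orange points for genes that passed, blue lines for medians and a grey band for the interquartile range of all genes. The 2 orange points are Srebf2 (-0.53) and Lrp1 (-0.58) in the paclitaxel panel.

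Among sterol sensors and SREBP control genes 1 of 13 passed. Values below 0 numbered 11 of 13 with paclitaxel, 11 with the combination and 6 with MBQ-167. Over all 65 tested genes of the wider list they numbered 41, 44 and 34 in the same order. All 5 tested oxysterol and bile acid enzymes of the wider list, Dhcr7 of cholesterol synthesis among them, were below 0 in each of these comparisons. That list leaves out Ch25h and Cyp7b1, which were above 0 in each. With paclitaxel, the combination and MBQ-167, Ch25h had 1.89, 0.76 and 1.91, and Cyp7b1 had 1.12, 1.36 and 0.89. The signs were not tested. Srebf2, which encodes the SREBP-2 held back by 25-hydroxycholesterol, fell to 89.7 ± 3.83 CPM (SD, n = 3) with paclitaxel, against 129.3 ± 21.5 CPM with vehicle, a log2 fold change of -0.53 ± 0.12 (SE, edgeR adjusted p = 0.0239). It had -0.15 ± 0.12 with MBQ-167 (adjusted p = 0.654) and -0.38 ± 0.12 with the combination (adjusted p = 0.118). The paclitaxel libraries, at 87.4, 94.1 and 87.5 CPM, lay below the vehicle libraries, at 112.6, 121.7 and 153.6 CPM. The call was lost without vehicle 3 (-0.39), without paclitaxel 1, 2 and 3 (-0.51, -0.56 and -0.52), with GC content corrected (-0.40) and with neutrophil markers in the fit (-0.27). Mbtps1, the protease that cuts SREBPs, had -0.23 ± 0.12 with paclitaxel (adjusted p = 0.267).

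Among sterol uptake genes 1 of 10 passed. Lrp1, a large endocytic receptor that takes up ApoE-bearing particles, fell to 1321 ± 110 CPM (SD, n = 3) with paclitaxel, against 1974 ± 247 CPM with vehicle (-0.58 ± 0.16, SE, edgeR adjusted p = 0.049), and it had -0.47 ± 0.16 with the combination (adjusted p = 0.138). The Lrp1 call was lost on leaving out any of the 6 libraries, with values from -0.69 to -0.51, with the replicate block (-0.57), with GC content corrected (-0.45) and with neutrophil markers in the fit (-0.61). Msr1, a scavenger receptor of macrophages, had 0.36 ± 0.41 with paclitaxel.

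None of the 5 tested oxysterol and bile acid enzymes of the wider list passed with edgeR in the 6 comparisons. Hsd3b7 averaged 27.8 ± 2.87 CPM (SD, n = 3) with MBQ-167, 30.6 ± 3.86 with paclitaxel, 30.3 ± 2.53 with the combination and 31.9 ± 1.72 with vehicle. Dhcr7, the last enzyme of cholesterol synthesis, averaged 21.2 ± 3.65, 16 ± 3.08, 15.8 ± 0.67 and 21.8 ± 3.71 CPM in the same order. Of the 10 tested LXR partners and coregulators 0 passed, and the corepressor Ncor1 had 0.22 ± 0.11 with paclitaxel. Of the 12 other LXR targets 0 passed. Fasn, fatty acid synthase, had 0.32 ± 0.14, 0.02 ± 0.14 and -0.07 ± 0.14 for MBQ-167, paclitaxel and combination, and Scd2, a desaturase, 0.25 ± 0.14, -0.18 ± 0.14 and -0.26 ± 0.14. Of the 15 sterol trafficking and storage genes 0 passed, with Npc2, the lysosomal sterol carrier, at -0.31 ± 0.14 and Soat1, which esterifies cholesterol, at -0.09 ± 0.13 with paclitaxel.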

How the data were processed

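The authors deposited raw counts per Ensembl gene in 1 column for each of 12 libraries. The submitters' processing notes name HISAT2, HTSeq and DESeq2 and the build GRCm38. Versions, annotation, strandedness and the treatment of multi-mapping reads were not given in the sources used here. All deposited counts were whole numbers, and 45143 of 46078 identifiers matched a symbol. Coordinates, merged exon lengths and GC content came from GENCODE vM21.

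Genes were filtered with filterByExpr (minimum count 10), leaving 18252. All 4 group means were fitted with TMM scaling in edgeR 4.0.16 (quasi-likelihood), over all 12 libraries (8 residual degrees of freedom). Adjusted p-values are Benjamini-Hochberg over all genes, with a threshold of 0.05, in 6 comparisons. SE is the fold change divided by the root of F. Log2 CPM used a prior count of 2. The fit was tested on simulated data.

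The 9 genes, the wider list and the tests were chosen with earlier results of these data known. The text names the 9 genes, the wider-list genes that passed and, per role, the 2 most abundant, except 1 gene that is not reported here. It also names the 6 genes most like Ch25h and the 3 most like each of the others. Gm26902 and Ubac2 are named for their overlap, and Tmem229b and Zbp1 were named after their values were seen. Marker levels are mean deviations of log2 CPM. Same-numbered vehicle and combination libraries had correlations of 0.108, 0.215 and 0.188 between their deviations from the group means, each over 0.1. Differently numbered libraries were not compared, so this does not show that the numbers pair libraries. The labels tie the numbers to no shared batch or animal. Alternatives were DESeq2 1.42.0, RLE scaling, no filter, a replicate block, a GC offset (spline with 5 degrees of freedom), a neutrophil marker covariate and leaving out each library.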

Additional observations from a re-analysis of the deposited data

Results flagged for a closer look

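The effect of paclitaxel on Ch25h differed with the presence of MBQ-167. It was 1.89 ± 0.35 (log2, SE, n = 3 per group) for paclitaxel against vehicle and -1.15 ± 0.33 for combination against MBQ-167, a difference of -3.04 ± 0.48 that was past the threshold of edgeR's quasi-likelihood test over all genes. Ch25h was listed with this result known, so it is a description. The call held in 7 of 18 alternative fits, and in 2 of the 12 that left out 1 library. It was lost with neutrophil markers in the fit. Groups of 3 libraries are too small for a test of single outlying libraries.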

How the results depend on the processing

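Of 702 values of the 9 genes under the alternatives, 679 moved by less than the SD between libraries and 23 by more. The values that had passed, Ch25h for paclitaxel and in the interaction, kept their sign in all fits. They kept their call in 11 of 12 and 7 of 18 fits. Among values that had not passed, signs did change. Nr1h3 with paclitaxel, for example, kept its sign in 8 of 12 fits. DESeq2 called more genes, 284, 1737, 918 and 133 for MBQ-167, paclitaxel, combination and interaction, against 17, 1033, 336 and 11, and 1 and 5 for the combination against MBQ-167 and paclitaxel, against 0 and 0. It called 5 and 2 wider-list genes for paclitaxel and combination, and 1 of the 9 genes for MBQ-167 (Ch25h) and 1 for the combination (Cyp7b1). With no filter on low counts the numbers were 392, 1554, 849 and 197, and 4 and 7 against the single drugs, with 1, 6 and 2 wider-list genes and 1, 2 and 2 of the 9 for MBQ-167, paclitaxel and combination. The GC correction left 306 and 55 genes for paclitaxel and combination, with 0 wider-list genes for paclitaxel. The neutrophil covariate left 11, 172, 48 and 6 genes for MBQ-167, paclitaxel, combination and interaction, with 0 wider-list genes for paclitaxel 0 of the 9 in the interaction and 1 for paclitaxel (Gpr183 in place of Ch25h). The causes were not tested. Leaving out 1 library gave 5 to 42, 230 to 1139, 29 to 416 and 2 to 16 genes; the lowest were without MBQ-167 2 and MBQ-167 3, without paclitaxel 2, without combination 1, and without MBQ-167 2, MBQ-167 3, paclitaxel 3 or combination 2, in that order of comparisons. It gave 0 to 1 wider-list genes for paclitaxel, and 0 to 1, 1 to 3 and 0 to 1 of the 9 for MBQ-167, paclitaxel and interaction. The 3 for paclitaxel, without vehicle 3, were Ch25h, Gpr183 and Apoe.

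With the replicate block the counts were 24, 1092, 300 and 13, with 1 wider-list gene for paclitaxel and 1 of the 9 for MBQ-167 (Ch25h, 1.94). For combination against vehicle, where each same-numbered correlation was over 0.1, the block changed no call among the 9 genes or the wider list. Over all pairs of groups, 6 of the 18 same-numbered correlations were over 0.1, and the 18 ran from -0.175 to 0.252. The highest was between MBQ-167 3 and combination 3. RLE scaling moved no count by over 1.5 times. Low counts limit Ch25h, Cyp7b1 and Nr1h3, and intervals here cover the spread between libraries only.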
